A study of Rattus norvegicus with 12 samples.

Results

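Ion channel genes of the rat uterus were described across strain and progesterone treatment. They were all rows of the deposited gene tables whose name begins as a potassium (Kcn), calcium (Cacna, Cacnb, Cacng), sodium (Scn), hyperpolarization-activated (Hcn) or transient receptor potential (Trpc, Trpm, Trpv) channel gene, 163 of 26312 genes. By name they fell into 41 voltage-gated potassium pore subunits, 14 potassium channel accessory subunits, 12 calcium- or sodium-activated potassium channel genes, 15 inward rectifiers and 15 two-pore potassium channels. They also held 10 calcium channel pore subunits with 4 alpha2delta, 4 beta and 8 gamma subunits, 10 sodium channel pore subunits with 4 beta subunits, 4 Hcn genes, 7 Trpc, 8 Trpm and 6 Trpv genes. Trpc4ap, which matches the naming rule, encodes a binding partner of a TRPC channel rather than a channel and was kept apart. Every row was counted as a gene, although Kcnip2 and KCNIP2, Kcnk6 and KCNK6, and Kcna10_1 and Kcna10_2 share a gene name. RNA sequencing of polyA RNA from whole uterus compared Holtzman Sprague Dawley (HSD), an outbred stock, with Brown Norway (BN), an inbred strain. All animals were females of 10 weeks whose ovaries had been removed and who had then rested for 2 weeks, and no estrogen treatment is named in the labels. Subcutaneous progesterone at 40 µg per g of body weight, written P4 in the group names, was compared with sesame oil 9 h after treatment. Each of the 4 groups (HSD oil, HSD P4, BN oil and BN P4) held 3 libraries. The labels give every library its own number without saying what it counts, so p-values measure the spread between these libraries.

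Ion channels set the membrane potential and the entry of calcium in excitable and epithelial cells. In the myometrium, the smooth muscle wall of the uterus, action potentials open L-type calcium channels and the calcium that enters drives contraction, while potassium channels oppose firing and hold the muscle quiet. Progesterone is known as the hormone of uterine quiescence in rodents. In the endometrium, apical and basolateral channels help to set the volume and ion content of the luminal fluid, and TRP channels pass calcium, magnesium and sodium in response to lipids, stretch, temperature or store release. Whole uterus mixes these tissues, and in such bulk RNA fewer cells of a type and less RNA per cell cannot be told apart.

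Libraries held 11763894 to 19033254 gene reads, of which the channel genes took 0.276% to 0.370%. A gene was taken as detected from 3 reads upward, which amounts to 0.158 to 0.255 CPM (reads scaled to a common library depth) in these libraries. Smooth muscle content was followed with a score, the mean over 11 markers (Myh11, Actg2, Cnn1, Tagln, Smtn, Des, Lmod1, Myocd, Synpo2, Mylk and Synm) of the log2 CPM minus its mean over libraries. It was 0.04, -0.50 and 0.04 in HSD oil, -0.09, 0.33 and -0.75 in HSD P4, 0.39, 0.09 and 0.06 in BN oil, and 0.31, -0.14 and 0.20 in BN P4. Oil and progesterone overlapped within each strain, while every BN oil library was above every HSD oil library, and HSD oil replicate 2 and HSD P4 replicate 3 were the poorest in muscle markers. The summed level of the 11 markers ranged over 11830.0 to 16947 CPM in HSD oil, 10240.0 to 20411 in HSD P4, 17462 to 21469 in BN oil and 14627 to 18869 in BN P4, and none was at 0. For progesterone edgeR called 0 of the 11 in either strain, with 2 in HSD and 0 in BN at an unadjusted p below 0.05, and Synm alone fell in the average of the strains. Between strains Myocd was called higher in BN under both treatments. Of 12 nerve and Schwann cell markers, Stmn2, Elavl4 and Snap25 were near or below detection, at no more than 0.463 CPM in any library, and Tubb3 rose in both strains, while the summed level was 91.9 to 103 CPM in BN oil and 70.4 to 82.5 in BN P4, against 47.6 to 62.6 in HSD oil and 45.3 to 63.98 in HSD P4. Of 12 oxidative phosphorylation subunits, a sign of RNA quality among other things, 11 rose in HSD and 5 in BN, and their summed level went from 824 to 1046 to 1334 to 2060.1 CPM in HSD and from 838 to 970.0 to 1109.7 to 1406 in BN. The part of either list in the channel gene results was not tested.

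Across the 163 genes expression was mostly low. On the deposited RPKM scale, which divides exon reads by exon length and depth, 66 genes averaged at least 1 over the 12 libraries, 16 at least 10 and 7 at least 20. The highest mean RPKM belonged to the partner gene Trpc4ap at 36.6, followed by Kcnmb1, the smooth muscle beta subunit of the large-conductance calcium-activated (BK) potassium channel, at 26.5. Also high were Kcnh2, the ERG potassium channel, at 25.3, the L-type calcium pore Cacna1d at 22.1, the magnesium-permeable channel kinase Trpm7 at 21.97 and the two-pore potassium channel Kcnk1 at 20.8. These levels were not separated by their spread: Kcnmb1 spanned 17.3 to 38.1 RPKM over libraries and Kcnh2 13.3 to 36.03. Too few reads for testing were found for 43 genes, of which 10 had at most 3 reads in every library and 2 had none, and the highest count of any untested gene in a library was 13. Among them were Kcnj11 and Trpv5, the pore of the pancreatic and cardiac ATP-sensitive potassium channel and the renal calcium entry channel, as well as Scn9a and Cacng4.

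**Figure D1:**
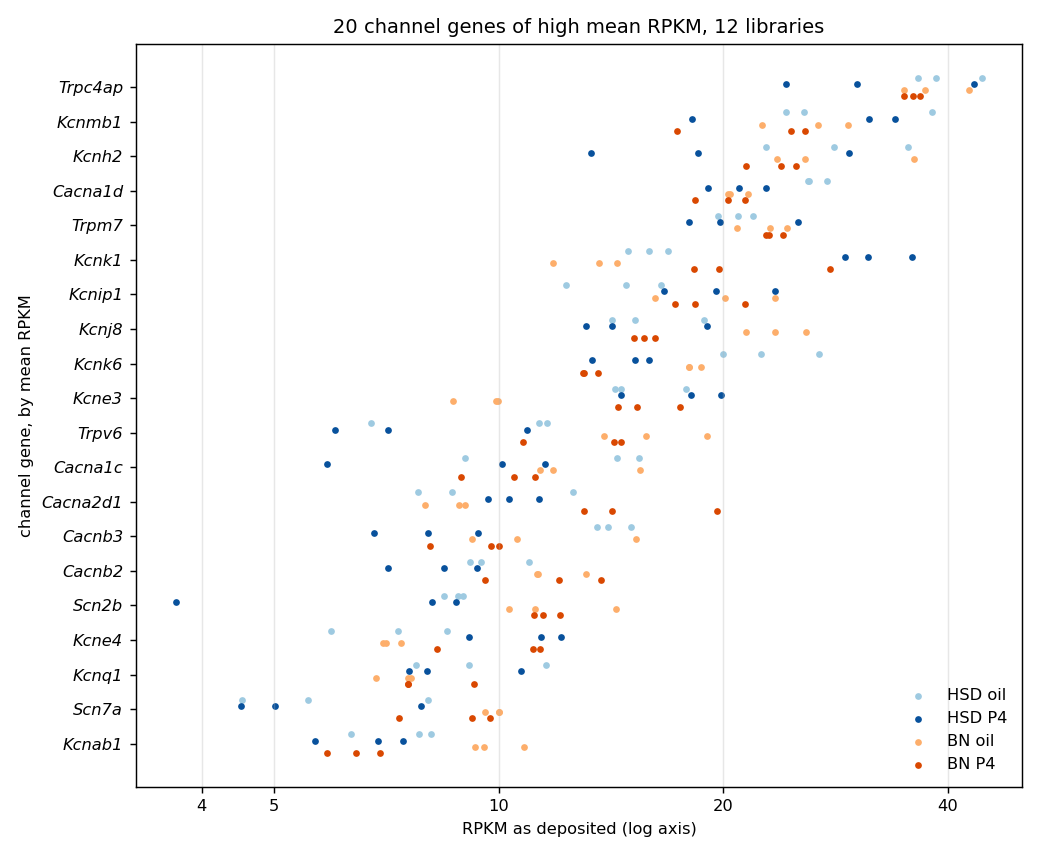
RPKM as deposited (log axis) of 20 channel genes of high mean level, each point 1 library, coloured by group (HSD oil, HSD P4, BN oil, BN P4). Kcnk1 points of HSD P4 lie right of those of HSD oil, while the libraries of Trpm7 lie close together in all 4 groups.

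Progesterone moved channel genes in both directions, with a few large changes. Among the widest falls were those of Kcna2, a delayed rectifier of axons and smooth muscle, Kcnj9, a G protein-gated inward rectifier, and Trpm3, a cation channel opened by heat and pregnenolone sulfate. Large rises were seen for Trpm8, the cold and menthol receptor, in HSD, and for the sodium-activated potassium channel Kcnt1 in both strains. Of 120 channel genes tested, 43 were called in HSD at a 5% false discovery rate across all genes (edgeR quasi-likelihood test), 17 higher and 26 lower. That is 35.8% of those tested, beside 39.1% of all 15697 tested genes called, 20.3% higher and 18.7% lower. In BN 30 were called, 13 higher and 17 lower, or 25.0% beside 25.8% of all genes, 14% higher and 11.8% lower. Leaving out single BN libraries moved the BN count most, to 17 without BN oil replicate 3 and 19 without BN P4 replicate 1. The median log2 change of the 120 genes was -0.15 in HSD and -0.11 in BN, beside -0.02 and -0.01 for all genes. The share called was thus close to the background in both strains.

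In both strains 22 genes were called in the same direction, and 0 in opposite directions. These 22 are 51.2% of the HSD list and 73.3% of the BN list, which rest on separate libraries but share an estimate of the spread. Kcne4, Kcng3, Kcnh1, Kcnh8, Kcnj14, Kcnk1, Kcnk2, Kcnmb4 and Kcnt1, all potassium channel genes, were the 9 that rose in both. Another 13 fell in both, among them Cacna1a, Kcna2, Kcnd1, Kcnip2, Kcnj13, Kcnj9, Kcnk6, Scn8a, TRPC2, Trpm3 and Trpm4. All 21 genes called in HSD alone had the same sign in BN, as had 6 of the 8 called in BN alone. The overlap and the shared signs were not counted over all tested genes. They therefore cannot be read as particular to channel genes.

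**Figure D2:**
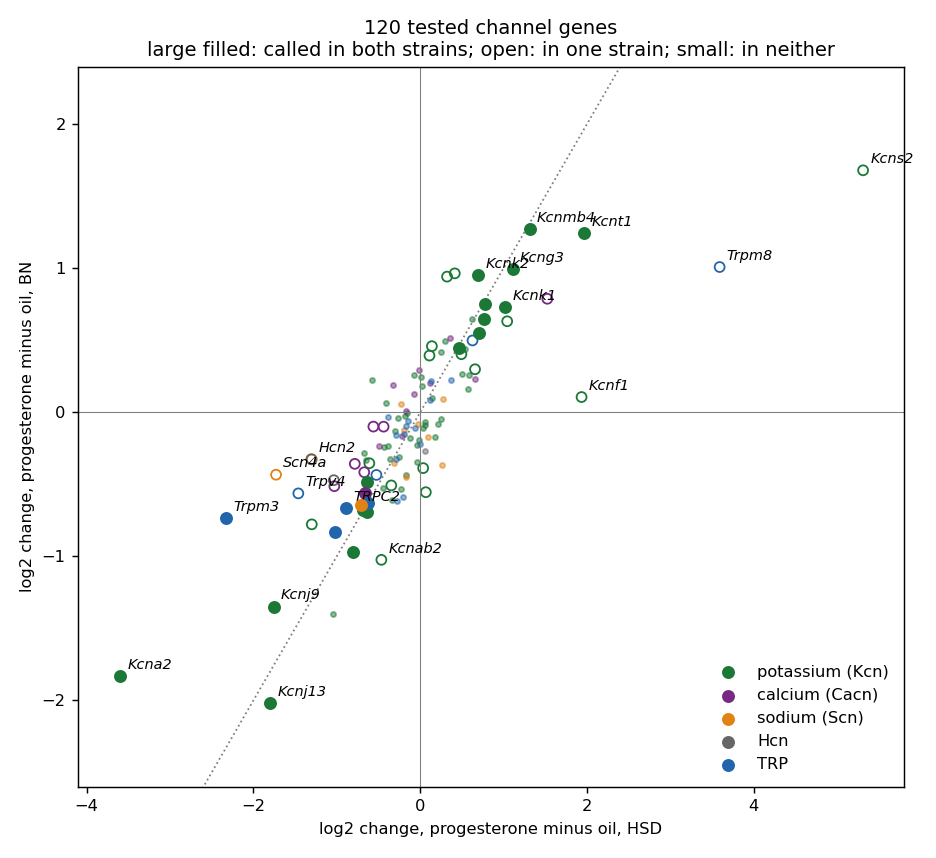
Log2 change under progesterone in HSD (x axis) against BN (y axis) for the 120 tested channel genes, coloured by channel family, with the dotted line marking equal change. Large filled points were called in both strains, open points in 1 strain and small points in neither. Trpm8, Kcns2, Trpm3 and Kcna2 lie farther from 0 on the HSD axis than on the BN axis.

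The promoters of 4 channel genes are shown. Trpm8 rose in HSD, Kcnt1 and Kcnmb4 rose in both strains, and Kcna2 fell in both. Promoters of the first 3 hold a match to the steroid receptor half-site TGTTCT, and that of Kcna2 holds none. They come from RefSeq (rat build GRCr8), 250 bases before to 50 after the annotated start, in the sense of the gene, with TGTTCT in capitals. Trpm8 lies at chr9:96351433-96351732 on the plus strand, Kcnt1 at chr3:29081089-29081388 on the plus strand, Kcnmb4 at chr7:54005052-54005351 on the minus strand and Kcna2 at chr2:197393280-197393579 on the plus strand.
Trpm8: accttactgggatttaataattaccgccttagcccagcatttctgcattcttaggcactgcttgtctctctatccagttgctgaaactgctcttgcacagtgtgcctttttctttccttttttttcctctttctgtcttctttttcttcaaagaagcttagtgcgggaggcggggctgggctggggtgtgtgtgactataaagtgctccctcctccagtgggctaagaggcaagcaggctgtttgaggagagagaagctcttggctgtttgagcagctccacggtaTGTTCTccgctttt
Kcnt1: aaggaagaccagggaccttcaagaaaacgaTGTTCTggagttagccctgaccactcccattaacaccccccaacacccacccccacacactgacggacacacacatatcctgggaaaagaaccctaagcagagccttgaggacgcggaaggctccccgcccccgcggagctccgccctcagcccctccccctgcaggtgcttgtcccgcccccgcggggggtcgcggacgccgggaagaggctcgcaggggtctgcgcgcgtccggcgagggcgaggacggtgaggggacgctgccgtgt
Kcnmb4: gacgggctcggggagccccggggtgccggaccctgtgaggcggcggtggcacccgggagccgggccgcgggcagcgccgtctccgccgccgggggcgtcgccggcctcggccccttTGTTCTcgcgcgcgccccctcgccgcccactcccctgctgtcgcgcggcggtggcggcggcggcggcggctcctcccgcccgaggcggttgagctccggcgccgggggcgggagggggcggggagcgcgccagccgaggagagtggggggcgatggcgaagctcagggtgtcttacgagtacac
Kcna2: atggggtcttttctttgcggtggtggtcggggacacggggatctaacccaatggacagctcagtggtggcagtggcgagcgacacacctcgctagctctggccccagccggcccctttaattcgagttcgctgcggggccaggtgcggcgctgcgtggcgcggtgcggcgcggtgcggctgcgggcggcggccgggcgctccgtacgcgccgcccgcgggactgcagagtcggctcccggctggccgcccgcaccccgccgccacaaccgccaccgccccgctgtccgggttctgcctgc
The match begins 36 bases after the start in Trpm8, and at -220 in Kcnt1 and -134 in Kcnmb4. Searched on both strands, TGTTCT was found in 4 of 17 promoters of genes called higher in the average of the strains, 0 of 18 called lower and 8 of 49 not called. In that average 50 of the 120 genes were called, 22 higher and 28 lower, beside 48.4% of all genes, 24.6% higher and 23.7% lower. Of 33469 RefSeq promoters of the same length 20.7% hold TGTTCT. The full palindrome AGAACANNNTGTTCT, which contains the half-site, was in 0.015% of them, the estrogen palindrome GGTCANNNTGACC in 0.027% and the serum response factor CArG box in 1.64%, and each was in 0 of the 17, 18 and 49 promoters. The letters TATAAA were in 14.2% of all promoters, 1 of the 17, 1 of the 18 and 0 of the 49, the first of these being Trpm8, in the stretch gactataaagtg. A match describes the letters of the window and no more.

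Voltage-gated potassium pore subunits, which repolarize the membrane, moved in both directions. Of 29 tested, 6 rose and 3 fell in HSD, and 5 rose and 4 fell in BN, with class medians of 0.00 and -0.04. Kcna2 (chromosome 2, 229304210 to 229308358 in Rnor_5.0, the build of the files) stood at 22.7, 15.4 and 18.1 CPM (after scaling between libraries) in HSD oil and at 0.957, 1.21 and 2.36 in HSD P4. In BN it stood at 5.56, 6.96 and 8.27 under oil and 1.33, 2.62 and 1.897 under progesterone. Oil and progesterone did not overlap in either strain, and the HSD oil libraries were above all others. The log2 change was -3.60 ± 0.31 (SE) in HSD and -1.83 ± 0.31 in BN, with adjusted p of 3.89e-06 and 0.00107. Kcnd1, the pore of an A-type current, fell from 10.4, 9.12 and 6.37 to 4.09, 6.101 and 4.54 CPM in HSD, a change of -0.81. In BN it fell from 12.7, 9.56 and 10.98 to 4.58, 5.25 and 7.12 CPM, a change of -0.97 ± 0.23 at an adjusted p of 0.00851. The groups were again apart. The call ended for Kcnd1 in HSD without HSD oil replicate 1 or HSD P4 replicate 1 (log2 change -0.69 to -0.64).

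Among the pore subunits that rose, Kcnh1, the ether-à-go-go channel of brain and of dividing cells, gave 10.7, 11.8 and 8.94 CPM in HSD oil and 16.5, 18.9 and 17.9 in HSD P4. In BN it gave 14.8, 11.5 and 14.4 and 21.4, 23.9 and 18.7. Both strains separated oil from progesterone, by 0.76 ± 0.15 (adjusted p 0.00149) and 0.65 ± 0.15 (adjusted p 0.00634). Kcng3, a silent subunit that modifies Kv2 channels, went from 1.81, 1.61 and 1.68 to 3.83, 2.91 and 4.301 CPM in HSD and from 0.639, 1.62 and 1.06 to 1.97, 2.36 and 2.27 in BN, changes of 1.11 and 0.99. Kcns2, another silent subunit, had 1 read in the 3 HSD oil libraries together and 46 in the 3 HSD P4 libraries. Corrected for depth, the ratio was 50.7 (95% counting interval 8.66 to 2046, adjusted p 0.00361). In BN it had 4 reads under oil and 17 under progesterone, 16 of them in BN P4 replicate 3, and was not called. Kcnf1, also silent, changed by 1.94 in HSD (0.722, 0.107 and 0.559 to 1.74, 2.86 and 0.766 CPM), gave 0.11 in BN without a call, and varied with the muscle score. Kcnq5, a Kv7 channel of smooth muscle and neurons, was higher in BN P4 at 8.92, 10.96 and 8.64 CPM than in BN oil at 4.54, 5.84 and 4.42, a change of 0.94 ± 0.21 (adjusted p 0.00659). In HSD it gave 0.32 ± 0.20 and was not called. Kcnq1, the Kv7.1 pore of epithelia and heart, rose by 0.39 in BN from 40.5, 39.7 and 39.2 to 49.4, 56.7 and 50.9 CPM. Kcnh8 changed by 0.78 and 0.75, with 97.4% of its reads in introns and at most 0.0709 RPKM from exons, on which the BN change was -0.025 (limma on log2 RPKM). Calls were lost for Kcng3 in BN without BN oil replicate 1 or 3 or BN P4 replicate 1, 2 or 3 (log2 change 0.68 to 1.04), Kcnf1 in HSD without HSD P4 replicate 2 (log2 change 1.38), Kcnq1 in BN without BN oil replicate 2 or 3 or BN P4 replicate 2 (log2 change 0.32 to 0.37), Kcnh8 in HSD without HSD oil replicate 1 or 3 or HSD P4 replicate 1 (log2 change 0.65 to 0.78), and Kcnh8 in BN without BN oil replicate 1, 2 or 3 or BN P4 replicate 1 or 2 (log2 change 0.59 to 0.84).

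Several pore subunits with a known place in myometrium were not called. Kcnh2, which shapes the plateau of uterine contractions, held 188, 163 and 127 CPM in HSD oil and 117, 164 and 85.8 in HSD P4, with 209.7, 152 and 159 and 143, 142 and 159 in BN. The groups overlapped within each strain, at log2 changes of -0.38 ± 0.21 and -0.23 ± 0.21. Kcna5, of arterial muscle, stayed at 0.164 to 1.13 CPM. Kcnb2 rose in HSD (0.66) and Kcns3 fell in BN (-0.51), both named after their values were seen.

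Accessory subunits change the gating and the surface level of potassium channels. Of 12 tested, 2 rose and 1 fell in HSD, and 2 rose and 3 fell in BN, with medians of -0.06 and -0.08. Kcne4, a one-span subunit that inhibits Kv7.1, gave 15.5, 18.9 and 22.2 CPM in HSD oil and 25.9, 31.8 and 34.8 in HSD P4, a change of 0.71 ± 0.16 (adjusted p 0.00435). In BN it went from 18.7, 18.4 and 19.2 to 22.1, 30.04 and 30.6 CPM, a change of 0.55 ± 0.16 (adjusted p 0.0261). The oil and progesterone libraries were apart in both strains. Kcnip2, a calcium sensor that binds Kv4 pores such as that of Kcnd1, fell from 14.3, 14.97 and 11.4 to 6.35, 11.98 and 7.601 CPM in HSD, where the groups overlapped, and from 25.1, 24.7 and 26.1 to 16.6, 15.3 and 14.97 in BN. The changes were -0.64 and -0.70, and with 51.6% of reads placed uniquely its level is uncertain. Another row, KCNIP2, held 0.512 to 1.34 CPM over libraries and was not called for progesterone in either strain. Kcnab1 and Kcnab2, beta subunits of Kv1 channels, were lower in BN P4 (log2 changes of -0.39 and -1.02), and Kcnab3 rose in HSD by 1.04. Kcne3, which holds Kv7.1 open in epithelia, rose in BN from 20.5, 22.995 and 22.5 to 27.5, 29.7 and 33.5 CPM, and Kcnip1, at 24.1 to 55.8 CPM, was not called in either strain. Single libraries ended the calls of Kcne4 in BN without BN oil replicate 1, 2 or 3 or BN P4 replicate 2 or 3 (log2 change 0.45 to 0.55), Kcnip2 in HSD without HSD oil replicate 1 or 2 or HSD P4 replicate 1 or 3 (log2 change -0.59 to -0.47), Kcnip2 in BN without BN oil replicate 3 or BN P4 replicate 3 (log2 change -0.69 to -0.68), Kcnab1 in BN without BN oil replicate 1 or 3 or BN P4 replicate 1 or 3 (log2 change -0.42 to -0.36), Kcnab2 in BN without BN P4 replicate 3 (log2 change -0.92), Kcnab3 in HSD without HSD oil replicate 1 or 3 or HSD P4 replicate 1 or 3 (log2 change 0.85 to 1.02), and Kcne3 in BN without any of 10 libraries, each left out alone, that is all but HSD P4 replicate 2 and 3 (log2 change 0.36 to 0.50).

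Among calcium- and sodium-activated potassium channels Kcnt1 and Kcnmb4 rose in both strains. Of 9 tested, 3 rose and 1 fell in HSD and 2 rose in BN. Kcnt1, a large-conductance channel opened by sodium (chromosome 3, 8673193 to 8725541 in Rnor_5.0), gave 5.52, 3.81 and 2.68 CPM in HSD oil and 14.5, 19.5 and 13.02 in HSD P4. In BN it gave 5.44, 7.74 and 6.23 and 14.6, 14.2 and 17.1. All 6 progesterone libraries were above all 6 oil libraries, at log2 changes of 1.97 ± 0.24 in HSD and 1.24 ± 0.24 in BN and adjusted p of 5.77e-05 and 0.00244. Introns held 58.6% of its reads. Kcnmb4, a BK beta subunit best known from brain (chromosome 7, 59472015 to 59526626), was low at 1.19, 1.18 and 0.894 CPM in HSD oil and 2.09, 2.69 and 3.300 in HSD P4, a change of 1.31 ± 0.28 (adjusted p 0.00246). In BN the values were 0.703, 0.352 and 0.4096 and 1.33, 1.25 and 1.05, a change of 1.27 ± 0.34 (adjusted p 0.0147). Within each strain the groups did not overlap. Kcnmb1 held 51.96, 57.03 and 84.5 CPM in HSD oil and 70.2, 72.995 and 49.2 in HSD P4, and 68.7, 57.9 and 62.4 and 56.6, 50.7 and 57.8 in BN. It gave -0.01 ± 0.18 in HSD, where the groups overlapped, and -0.19 ± 0.18 in BN, neither of them called. Kcnma1, the BK pore, fell in HSD from 20.6, 25.7 and 21.3 to 11.6, 17.04 and 15.5 CPM (-0.61 ± 0.20, adjusted p 0.0298) and gave -0.35 ± 0.20 in BN without a call. Kcnn3, the small-conductance SK3 channel, whose overexpression disturbs labour in mice, rose in HSD by 0.49 ± 0.18 and gave 0.40 ± 0.18 in BN. These calls were lost for Kcnmb4 in BN without BN oil replicate 2 or 3 or BN P4 replicate 1 (log2 change 1.06 to 1.18), Kcnma1 in HSD without HSD oil replicate 2 or HSD P4 replicate 1 (log2 change -0.50 to -0.47), and Kcnn3 in HSD without any of 7 libraries, each left out alone, that is all but HSD P4 replicate 3 and BN oil replicate 1 and 2 and BN P4 replicate 1 and 2 (log2 change 0.33 to 0.57).

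**Figure D3:**
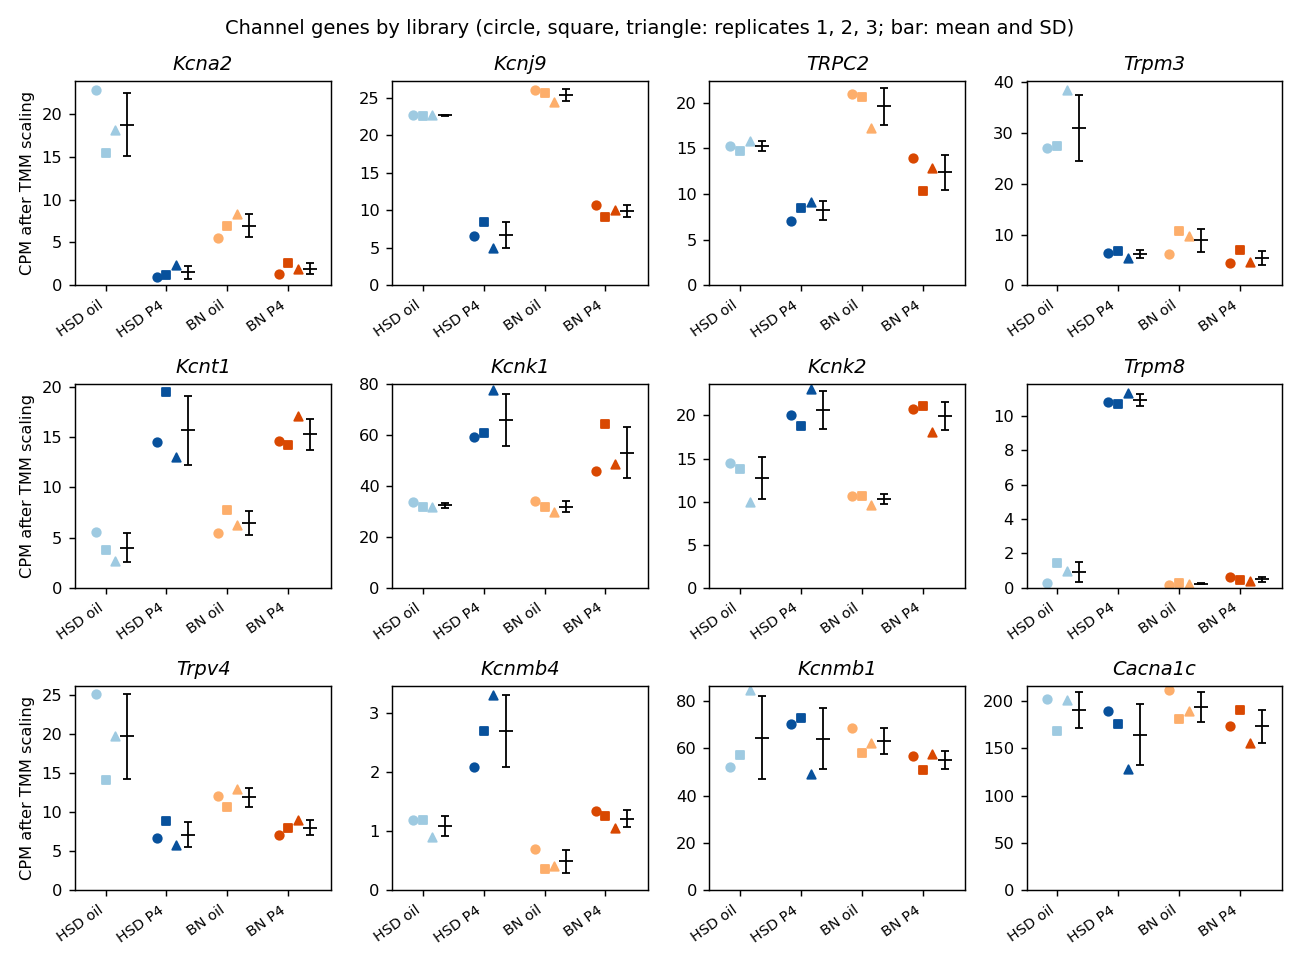
CPM after TMM scaling (linear axes from 0) in each library for 12 channel genes, with circles, squares and triangles for replicates 1, 2 and 3 and the mean with its SD over 3 libraries beside them. Kcna2, Kcnj9 and TRPC2 are lower and Kcnt1, Kcnk1, Kcnk2 and Kcnmb4 higher in every progesterone library than in any oil library of the same strain, Trpm8 stands apart in HSD P4, and Cacna1c overlaps.

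Inward rectifiers hold the resting potential, and some are opened by G proteins or closed by ATP. Of 8 tested, 1 rose and 2 fell in HSD, and 1 rose and 3 fell in BN. Kcnj9 (chromosome 13, 95224238 to 95231331), whose subunit joins G protein-gated channels, held 22.7, 22.6 and 22.7 CPM in HSD oil and 6.61, 8.46 and 5.01 in HSD P4. The BN values were 26.02, 25.6 and 24.5 under oil and 10.7, 9.12 and 10.1 under progesterone. Replicates lay close together and every progesterone library was below every oil library, at -1.76 ± 0.16 in HSD (adjusted p 5.45e-06) and -1.35 ± 0.16 in BN (adjusted p 7.34e-05). Introns held 70.5% of its reads. Kcnj13, a Kir7.1 channel of epithelia that is also known from human and mouse myometrium, was scarce. It had 54 reads in HSD oil and 13 in HSD P4, 3.77 times fewer per read sequenced (95% counting interval 2.03 to 7.53), and 24 and 7 in BN, 4.30 times fewer (1.80 to 11.8). Its adjusted p was 0.0162 in HSD and 0.0356 in BN, with 81.6% of reads placed uniquely. Kcnj14 rose by 0.46 ± 0.12 in HSD and 0.45 ± 0.12 in BN from 8.51 to 9.34 CPM under oil. Kcnj8, the Kir6.1 pore of the ATP-sensitive channel of vascular muscle and pericytes, fell in BN from 52.4, 63.4 and 58.1 to 38.8, 38.8 and 40.8 CPM (-0.55 ± 0.14, adjusted p 0.00979) and gave 0.07 ± 0.14 in HSD. Its sulfonylurea receptor partner ABCC9, also a pericyte marker, was also lower, at -0.44 in HSD and -0.43 in BN, and 2 of 6 pericyte markers, ABCC9 and Pdgfrb, fell in each strain while Rgs5 rose in HSD. The summed pericyte markers ranged over 683 to 916 CPM in HSD oil, 392 to 751 in HSD P4, 975 to 1095 in BN oil and 592 to 870.1 in BN P4, none at 0, and their part in the change of Kcnj8 was not tested. Kcnj2, a strong rectifier, stayed at 1.62 to 4.85 CPM with no call. Lost were the calls of Kcnj13 in BN without BN oil replicate 1, 2 or 3 or BN P4 replicate 1 or 2 (log2 change -2.13 to -1.69), and Kcnj14 in BN without BN oil replicate 2 or 3 or BN P4 replicate 1 (log2 change 0.38 to 0.42).

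Two-pore potassium channels carry background current. Of 11 tested, 2 rose and 2 fell in HSD, and 3 rose and 1 fell in BN, and the class medians were 0.42 and 0.26. Kcnk1 (TWIK1) held 33.5, 31.8 and 31.9 CPM in HSD oil and 59.2, 60.5 and 77.7 in HSD P4, and 33.9, 31.8 and 29.8 and 45.9, 64.4 and 48.6 in BN. Oil levels overlapped between strains and every progesterone library was higher, by 1.02 ± 0.14 in HSD (adjusted p 0.000125) and 0.73 ± 0.14 in BN (adjusted p 0.00253). Kcnk2 (TREK1), a stretch-activated channel studied in myometrium, held 14.4, 13.7 and 9.95 CPM in HSD oil and 20.001, 18.8 and 23.04 in HSD P4. Its BN values were 10.6, 10.6 and 9.67 and 20.7, 21.1 and 18.02. The groups were apart in both strains, by 0.70 ± 0.15 (adjusted p 0.00282) and 0.95 ± 0.15 (adjusted p 0.000776). Kcnk6 (TWIK2) went the other way, from 70.3, 81.7 and 57.3 to 47.2, 46.996 and 40.5 CPM in HSD and from 54.2, 52.5 and 54.5 to 38.6, 38.2 and 38.4 in BN. The changes were -0.64 ± 0.12 (adjusted p 0.00116) and -0.48 ± 0.12 (adjusted p 0.0109), with 54.4% of its reads placed uniquely. Kcnk4 (TRAAK) fell by 1.30 ± 0.27 in HSD from 2.89, 2.79 and 1.84 to 1.13, 0.879 and 1.06 CPM and gave -0.78 in BN without a call. Kcnk5 (TASK2), named after its values were seen, rose by 0.96 ± 0.19 in BN and gave 0.42 ± 0.19 in HSD.

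Few calcium channel pores were called. Of 7 tested, 1 fell in each strain and the other 6 were not called, with class medians of -0.21 and 0.13. Summed RPKM of the class, from exon reads and not scaled further, was 53.99 to 62.9 in HSD oil and 35.09 to 50.78 in HSD P4. In BN the sums of 47.05 to 55.25 and 42.7 to 48.04 overlapped. Cacna1d held 27.5, 25.96 and 26.1 RPKM in HSD oil and 19.1, 22.8 and 20.995 in HSD P4, and overlapped in BN. On log2 RPKM the median change of all tested genes was itself -0.11 in HSD and -0.05 in BN. It was -0.02 and -0.01 on the scaled gene reads used for the changes below. Cacna1c, the main L-type pore of myometrium, held 202, 168 and 201 CPM in HSD oil and 189, 176 and 128 in HSD P4, and 212, 181 and 189 and 174, 190.2 and 156 in BN. The groups overlapped, with changes of -0.21 ± 0.14 and -0.16 ± 0.14 that were not called, and it overlaps Dcp1b in the annotation. Cacna1d, the other L-type pore, gave -0.07 ± 0.12 and 0.13 ± 0.12, and the T-type pores, which open near rest, gave -0.32 ± 0.21 and 0.19 ± 0.20 for CACNA1G and -0.49 ± 0.25 and -0.23 ± 0.25 for Cacna1h, none of them called. Cacna1a, the P/Q-type pore of nerve endings, was the one that fell. It went from 96.3, 117 and 106 to 79.5, 71.3 and 51.7 CPM in HSD (-0.66 ± 0.14, adjusted p 0.00223) and from 131, 125 and 122 to 88.6, 81.998 and 85.7 in BN (-0.56 ± 0.13, adjusted p 0.00915). No progesterone library reached the oil libraries of its strain, and introns held 76.6% of its reads.

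Beta subunits bring calcium pores to the membrane, and of 4 tested 3 fell in HSD and 0 were called in BN by edgeR or DESeq2, where 0 had an unadjusted p below 0.05. Cacnb3, the beta subunit of smooth muscle and neurons, held 41.02, 47.6 and 43.04 CPM in HSD oil and 21.9, 28.7 and 25.7 in HSD P4, which did not overlap (-0.78 ± 0.18, adjusted p 0.00424). In BN it held 48.8, 28.6 and 33.1 and 24.8, 30.8 and 30.8, which did (-0.36 ± 0.18), and 49.2% of its reads were placed uniquely. Cacnb4 changed by -1.03 and Cacnb1 by -0.56 in HSD, while Cacnb2, at 52.96 to 81.4 CPM, gave -0.17 ± 0.10 and 0.01 ± 0.10 and was not called. Of the 4 alpha2delta subunits, which raise the surface level of the pores, Cacna2d1 reached 533 CPM and varied widely, with 349, 255 and 136 in HSD oil against 533, 352 and 284 in HSD P4 and no call. In BN it held 247, 296 and 290 CPM under oil and 334, 364 and 282 under progesterone, also without a call. Its RPKM, from exon reads, overlapped in HSD but not in BN, at 8.84, 9.03 and 7.97 under oil and 19.6, 13.01 and 14.2 under progesterone. Cacna2d3 fell by 0.44 and Cacna2d4 rose by 1.53 in HSD, the latter from 0.258, 0.537 and 0.335 to 1.04, 0.6596 and 1.59 CPM with 99.2% of its reads in introns and an overlap with Lrtm2. Cacng7 alone of 8 gamma subunits had enough reads, and it changed by -0.67 in HSD. These HSD calls were the less steady ones, lost for Cacnb1 in HSD without HSD P4 replicate 1 or 3 (log2 change -0.47 to -0.45), Cacnb4 in HSD without HSD oil replicate 2 or HSD P4 replicate 1 or 2 (log2 change -0.88 to -0.75), Cacna2d3 in HSD without any of 9 libraries, each left out alone, that is all but HSD oil replicate 1 and HSD P4 replicate 1 and BN P4 replicate 3 (log2 change -0.43 to -0.30), Cacna2d4 in HSD without HSD P4 replicate 3 (log2 change 1.12), and Cacng7 in HSD without any of 7 libraries, each left out alone, that is all but HSD oil replicate 1 and HSD P4 replicate 1 and 2 and BN P4 replicate 1 and 2 (log2 change -0.71 to -0.45).

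**Figure D4:**
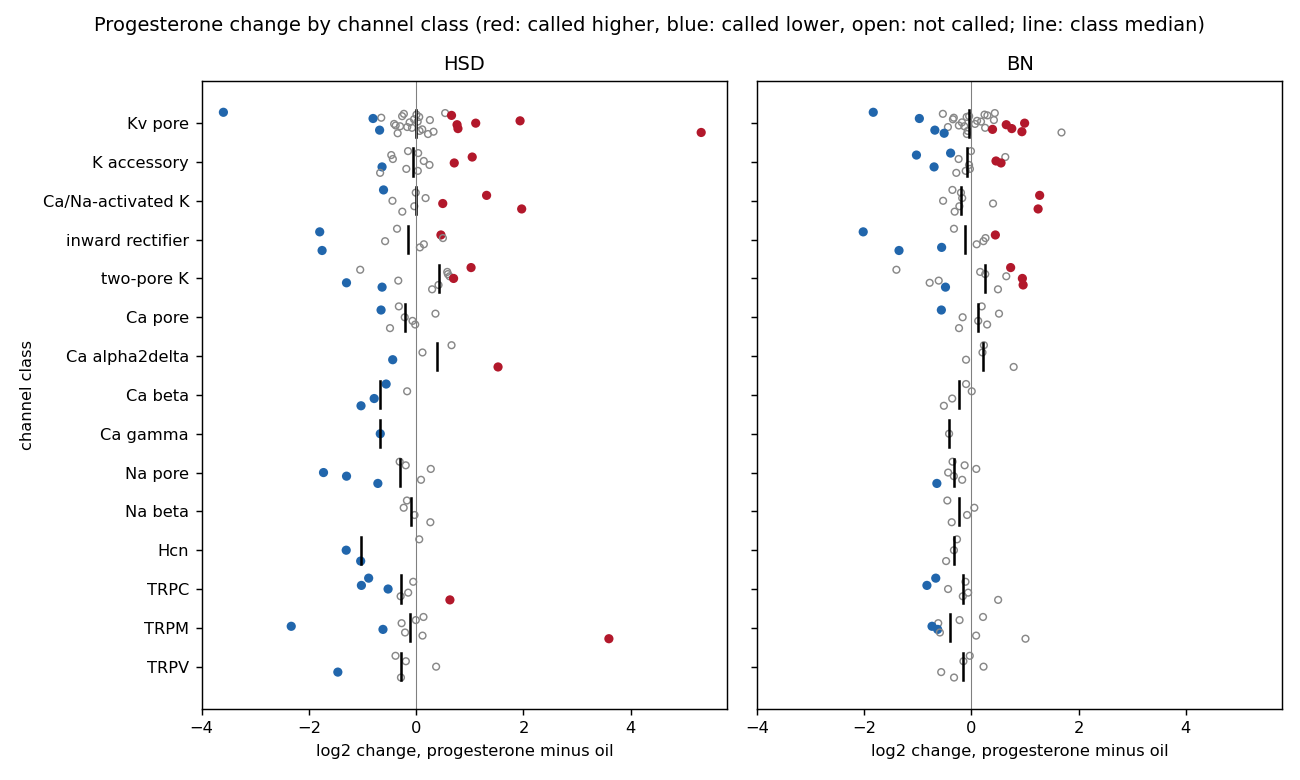
Log2 change under progesterone of every tested channel gene by class, in HSD (left) and BN (right), with red for called higher, blue for called lower, open grey for not called and a black line at the class median. Calls in the calcium beta, sodium, Hcn and Trpv classes were all falls, while two-pore and voltage-gated potassium channels show calls on both sides of 0.

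Sodium channel pores start fast action potentials in nerve and striated muscle. Of 7 tested, 3 fell in HSD and 1 fell in BN, and the others were not called. Scn8a, of neurons, held 7.48, 6.87 and 6.09 CPM in HSD oil and 4.09, 4.34 and 4.01 in HSD P4, and 3.197, 3.38 and 4.59 and 2.03, 2.89 and 2.21 in BN, changes of -0.72 ± 0.19 (adjusted p 0.0099) and -0.64 ± 0.21 (adjusted p 0.0358). The groups were apart within each strain. Scn4a, of skeletal muscle, spread over 9.39, 6.38 and 2.52 CPM in HSD oil and held 1.65, 1.43 and 2.42 in HSD P4 (-1.73 ± 0.40, adjusted p 0.0046), with HSD oil replicate 3 close to HSD P4 replicate 3. In BN it gave -0.43 ± 0.37 and no call, and edgeR called 0 of 3 tested skeletal muscle markers in either strain, with 1 in HSD and 0 in BN at an unadjusted p below 0.05. Scn7a, a sodium-sensing channel and the highest of these pores per length, held 26.7 to 60.5 CPM and was not called for progesterone, nor was Scn3a. The 4 beta subunits gave no call with edgeR or DESeq2 and 1 unadjusted p below 0.05, in BN, with Scn2b at -0.23 ± 0.23 and 0.05 ± 0.23. Hcn channels, which carry pacemaker current, fell in HSD for 2 of 3 tested (1 with DESeq2). In BN edgeR and DESeq2 called 0, and 0 had an unadjusted p below 0.05. Hcn2 held 3.87, 2.47 and 3.86 CPM in HSD oil and 1.74, 1.43 and 1.002 in HSD P4, which did not overlap (-1.31 ± 0.28, adjusted p 0.00277), and gave -0.33 ± 0.28 in BN. Hcn3 was under 1 CPM in every library (-1.04 in HSD). Calls that a left-out library ended were Scn8a in BN without BN oil replicate 3 or BN P4 replicate 1 or 3 (log2 change -0.62 to -0.49), and Hcn3 in HSD without any of 11 libraries, each left out alone, that is all but BN P4 replicate 1 (log2 change -1.17 to -0.96).

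TRPC channels admit calcium after receptor activation. Of 7 tested, 1 rose and 3 fell in HSD, and 2 fell in BN. TRPC2, a pheromone-sensing channel of rodents, held 15.2, 14.8 and 15.8 CPM in HSD oil, 7.04, 8.46 and 9.13 in HSD P4, 20.97, 20.6 and 17.3 in BN oil and 13.96, 10.3 and 12.9 in BN P4. Its groups did not overlap within a strain, at -0.89 ± 0.15 (adjusted p 0.00052) and -0.66 ± 0.14 (adjusted p 0.00516). Trpc4 changed by -0.52 in HSD and -0.43 in BN, where it was not called, and Trpc1 and Trpc6 gave -0.06 and -0.29 in HSD and -0.11 and -0.16 in BN without a call. Trpc7 changed by 0.63 in HSD, but 99.7% of its reads lay in introns and limma on log2 RPKM, from exon reads, gave -0.16. The partner Trpc4ap was not called, at -0.17 ± 0.13 and -0.09 ± 0.13. Leaving out a library ended Trpc4 in HSD without any of 10 libraries, each left out alone, that is all but HSD P4 replicate 2 and BN P4 replicate 1 (log2 change -0.55 to -0.36), and Trpc7 in HSD without HSD oil replicate 1 or 2 or HSD P4 replicate 1 (log2 change 0.48 to 0.58).

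TRPM genes held a large rise and a large fall in HSD. Of 8 tested, 1 rose and 2 fell in HSD, and 2 fell in BN. Trpm8 (chromosome 9, 95085452 to 95170098) held 0.3096, 1.45 and 0.9502 CPM in HSD oil and 10.8, 10.7 and 11.3 in HSD P4. In BN it held 0.192, 0.281 and 0.246 under oil, near the 3-read floor, and 0.637, 0.459 and 0.369 under progesterone. The 3 HSD P4 libraries lay close together and stood far above the other 9. The change was 3.59 ± 0.35 in HSD (adjusted p 9.04e-06) and 1.01 ± 0.58 in BN (adjusted p 0.228). Squamous cervix markers, 2 of 5 tested, summed to 1.83, 36.4 and 3.65 CPM in HSD P4, the high value being replicate 2 alone. They summed to 1.23 to 3.61 CPM across HSD oil. Krt15 was called higher in HSD, and the part of these markers in the Trpm8 rise was not tested. Trpm3 (chromosome 1, 247642339 to 248041913) went from 27.04, 27.5 and 38.5 to 6.43, 6.76 and 5.303 CPM in HSD and from 6.202, 10.6 and 9.75 to 4.46, 6.89 and 4.64 in BN, where the groups overlapped. Its changes were -2.33 ± 0.23 (adjusted p 1.17e-05) and -0.73 ± 0.24 (adjusted p 0.039), and it overlaps Mir204 and Aldh1a7, with 84.98% of reads placed uniquely. Introns held 68.8% of its reads. Its RPKM, from exon reads, was 0.856, 0.857 and 1.504 in HSD oil and 0.474, 0.372 and 0.369 in HSD P4, which did not overlap. Trpm4, a calcium-activated sodium channel that depolarizes muscle, held 49.7, 41.96 and 44.05 CPM in HSD oil, 28.7, 37.05 and 22.5 in HSD P4, 47.96, 34.9 and 34.7 in BN oil and 23.7, 25.1 and 27.3 in BN P4. The groups were apart, at -0.62 ± 0.17 (adjusted p 0.0136) and -0.63 ± 0.18 (adjusted p 0.0193). Trpm7, the most abundant of the family per length, gave 0.12 ± 0.13 and 0.09 ± 0.13 and was not called. Calls ended for Trpm3 in BN without BN oil replicate 2 or 3 or BN P4 replicate 1 or 3 (log2 change -0.68 to -0.60), Trpm4 in HSD without HSD oil replicate 1 (log2 change -0.54), and Trpm4 in BN without BN oil replicate 1 or BN P4 replicate 1 or 2 (log2 change -0.63 to -0.47).

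In the TRPV family 1 of 5 tested genes fell in HSD. In BN edgeR and DESeq2 called 0, and 1 had an unadjusted p below 0.05. Trpv4, which senses swelling and stretch, held 25.1, 14.2 and 19.8 CPM in HSD oil and 6.696, 8.905 and 5.77 in HSD P4, and 12.1, 10.6 and 12.9 and 7.12, 8.003 and 8.96 in BN. Oil and progesterone did not overlap in either strain, at -1.46 ± 0.22 (adjusted p 0.000207) and -0.56 ± 0.22 (adjusted p 0.0731). Trpv6, the epithelial calcium entry channel and the highest of the family, held 43.6, 42.1 and 26.4 CPM in HSD oil and 24.001, 39.9 and 27.8 in HSD P4, with 50.1, 70.5 and 60.04 and 39.4, 52.9 and 52.1 in BN. Its groups overlapped within each strain, with changes of -0.29 ± 0.22 and -0.32 ± 0.22 and no call.

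No channel gene passed the test of a difference between the strains in the progesterone change. The difference, the BN change minus the HSD change, was called for 0 of 120 channel genes and for 0.051% of all genes (0.0255% higher and 0.0255% lower), and 10 channel genes had an unadjusted p below 0.05. Trpm3 gave 1.60 ± 0.33 (unadjusted p 0.000355, edgeR adjusted p 0.152), Kcna2 1.77 ± 0.44 (adjusted p 0.256) and Trpm8 -2.58 ± 0.75 (adjusted p 0.37). The other 7 were Kcnab1, Kcnj8, Kcnf1, Hcn2, Scn4b, Scn4a and Trpv4, with differences of -1.83 to 1.30. DESeq2 called 2 genes, Trpm3 and Kcna2, and edgeR called 1, Trpm3, with the smooth muscle score as a covariate.

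Between the strains, 15 channel genes were called under oil, 6 higher and 9 lower in BN, which is 12.5% of those tested beside 5.69% of all genes (2.34% higher and 3.34% lower). Under progesterone 13 were called, 6 higher and 7 lower, 10.8% beside 5.73% (2.43% higher and 3.31% lower). These contrasts share their libraries with the progesterone contrasts. The smooth muscle score and the summed markers were higher in all BN oil than in all HSD oil libraries, as given above. Of the 11 markers edgeR called Myocd alone. Single markers such as Des overlapped, at 525 to 751 CPM in BN oil and 442 to 724 in HSD oil. Nerve markers called higher in BN were Cdh19 and Uchl1 under oil and Uchl1 under progesterone, with no overlap of the summed levels between strains. Mast cell markers summed to 19.05 to 24.6 CPM in HSD oil and 28.8 to 37.1 in BN oil, and to 12.5 to 15.6 and 22.9 to 23.5 under progesterone, with Cpa3 and Fcer1a called higher in BN under both. With the muscle score as a covariate 20 channel genes were called under oil, of which 14 were the same, and 17 under progesterone, of which 13 were the same. The part of the nerve and mast cell lists in the strain differences was not tested. Leaving out single libraries brought the oil count to between 7 (without BN oil replicate 3) and 20, with 8 without BN oil replicate 2 and 9 without HSD oil replicate 3 or BN oil replicate 1. It brought the progesterone count to between 4 (without BN P4 replicate 1) and 18, with 6, 7 and 8 without BN P4 replicate 3, BN P4 replicate 2 and HSD P4 replicate 1. Trpv2 is a calcium-permeable channel of macrophages, nerve and muscle. It held 2.48, 1.82 and 2.29 CPM in HSD oil and 2.26, 2.25 and 1.296 in HSD P4 against 6.91, 6.05 and 7.13 in BN oil and 6.66, 4.66 and 6.75 in BN P4. All 6 BN libraries were above all 6 HSD libraries, at 1.60 ± 0.24 under oil (adjusted p 0.00147) and 1.65 ± 0.24 under progesterone (adjusted p 0.00162). Of 5 tested macrophage and T cell markers edgeR called 0 between strains, with 1 at an unadjusted p below 0.05 under each treatment. Nerve and mast cell markers, given above, had calls higher in BN under both treatments. The part of these lists in the Trpv2 difference was not tested. TRPM6, a magnesium channel of absorptive epithelia, went the other way, with 24.9, 22.6 and 21.3 and 23.5, 27.8 and 24.2 CPM in HSD against 6.97, 11.96 and 11.9 and 10.4, 14.2 and 11.1 in BN. The HSD and BN libraries did not overlap, at -1.16 ± 0.19 (adjusted p 0.00347) and -1.08 ± 0.19 (adjusted p 0.00553). Of 11 epithelial markers 4 were lower in BN under oil (Foxa2, Epcam, Krt7 and Krt18) and 2 under progesterone, with summed levels of 920.4 to 1326 CPM in HSD oil and 833 to 878 in BN oil, and their part in the TRPM6 difference was not tested.

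The other strain differences were in single channels of several classes. Trpm8 was lower in BN P4 than in HSD P4, with a log2 difference of -4.47 ± 0.38 (adjusted p 1.98e-05), and under oil it gave -1.88 ± 0.53 without a call. Kcna2 was lower in BN oil than in HSD oil (-1.44 ± 0.27, adjusted p 0.00819), while under progesterone the strains gave 0.33 ± 0.35 and overlapped. Trpm3 was lower in BN oil (-1.81 ± 0.23, adjusted p 0.000491). Its RPKM, from exon reads, overlapped there, at 0.856, 0.857 and 1.504 in HSD and 0.422, 0.907 and 0.583 in BN. Kcnc4, a fast Kv3 channel, held 2.84, 4.72 and 4.19 CPM in HSD oil and 1.09, 1.55 and 1.23 in BN oil (-1.60 ± 0.28, adjusted p 0.00517). Kcnip2, Scn8a, TRPM6, Trpv2, Kcnc4 and Kcnk12 were the 6 called under both treatments, each in the same direction. The other row, KCNIP2, was not called between strains. Under oil it overlapped, at 1.29, 0.966 and 1.34 CPM in HSD and 0.512, 0.844 and 1.23 in BN. Kcnk12 gave -1.04 and -1.46, with 99.7% of its reads in introns and 0.022 under oil on log2 RPKM. Scn4b, a sodium channel beta subunit, was higher in BN oil (0.92). Cacna1d, Kcnj8, Kcnk4, Kcnq5, Scn7a and Trpc7 were the other calls under oil, at -0.46, 0.56, -1.23, -0.90, 0.75 and 0.77. Cacnb1, Cacnb2, Kcnab1, Kcnmb4 and TRPC2 were also called under progesterone, at 0.62, 0.38, -0.55, -1.16 and 0.59. For Kcnab1 the RPKM, from exon reads, overlapped there, at 5.67, 7.45 and 6.89 in HSD and 5.88, 6.44 and 6.93 in BN.

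Many of these smaller strain calls rested on single libraries. Under oil the call ended for Kcnip2 without HSD oil replicate 3 or BN oil replicate 3 (log2 change 0.79 to 0.88), Scn8a without HSD oil replicate 1 or BN oil replicate 1 or 2 (log2 change -0.81 to -0.78), Scn4b without HSD oil replicate 3 (log2 change 0.81), Kcnj8 without HSD oil replicate 2 or 3 or BN oil replicate 2 or 3 (log2 change 0.48 to 0.57), Kcnk4 without HSD oil replicate 1 or 2 or BN oil replicate 2 or 3 (log2 change -1.18 to -1.11), Kcnk12 without HSD oil replicate 2 or 3 or HSD P4 replicate 1 or BN oil replicate 1, 2 or 3 (log2 change -1.18 to -0.85), Kcnq5 without HSD oil replicate 3 or BN oil replicate 1 or 3 (log2 change -0.83 to -0.66), Cacna1d without any of 7 libraries, each left out alone, that is all but HSD P4 replicate 1, 2 and 3 and BN P4 replicate 1 and 3 (log2 change -0.49 to -0.42), Scn7a without any of 9 libraries, each left out alone, that is all but HSD oil replicate 1 and HSD P4 replicate 2 and 3 (log2 change 0.59 to 0.77), and Trpc7 without any of 8 libraries, each left out alone, that is all but HSD oil replicate 3 and HSD P4 replicate 1, 2 and 3 (log2 change 0.61 to 0.85). Under progesterone it ended for Kcnip2 without HSD P4 replicate 1 or 3 or BN P4 replicate 1, 2 or 3 (log2 change 0.66 to 0.85), Scn8a without HSD P4 replicate 1 or 3 or BN P4 replicate 1 or 3 (log2 change -0.84 to -0.73), Kcnc4 without HSD P4 replicate 1 or BN P4 replicate 1, 2 or 3 (log2 change -1.45 to -1.06), Kcnmb4 without HSD P4 replicate 3 or BN P4 replicate 1, 2 or 3 (log2 change -1.27 to -0.99), Kcnab1 without BN P4 replicate 1 (log2 change -0.53), TRPC2 without any of 10 libraries, each left out alone, that is all but HSD P4 replicate 3 and BN P4 replicate 2 (log2 change 0.46 to 0.58), Cacnb1 without any of 11 libraries, each left out alone, that is all but HSD P4 replicate 2 (log2 change 0.50 to 0.66), and Cacnb2 without any of 11 libraries, each left out alone, that is all but HSD P4 replicate 3 (log2 change 0.29 to 0.41). Trpv2, TRPM6, Trpm8 under progesterone, and Kcna2, Trpm3 and Kcnc4 under oil were called without any 1 library.

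Within groups, some channel genes varied with the smooth muscle score of the library, a smaller share than of all genes. In a model of group and score 17 of 120 channel genes varied with the score, 13 higher and 4 lower in muscle-rich libraries, which is 14.2% beside 25.9% of all genes (13.4% higher and 12.5% lower). The score comes from the same libraries. It was not followed by muscle alone: 5 of 8 endothelial and 5 of 6 pericyte markers rose with it. So did 3 of 8 stromal and 2 of 11 epithelial markers, and 8 of 12 oxidative phosphorylation subunits fell. None of these lists had a call the other way. What the slopes owe to muscle content alone was not tested. Cacna1h, a T-type calcium pore, had a slope of 0.88 ± 0.18 log2 units per unit of score (adjusted p 0.00378), Kcnh2 0.60 ± 0.20 (adjusted p 0.0401) and Kcnmb1 0.52 ± 0.17 (adjusted p 0.0413). Trpm4 at 0.56, Trpv2 at 0.76, Scn2b at 0.69, Kcnj9 at 0.46, Cacnb1 at 0.46, Trpc4ap at 0.41 and Kcnf1 at 1.87 also varied with it. Kcnk3, at 2.64, was named after its values were seen. The 4 that were higher in muscle-poor libraries were Cacnb4 (-1.13), SCN2A1 (-0.83), Kcnh3 (-0.47) and Trpm7 (-0.42). None of the named score calls held in every setting. Single libraries ended those of Cacna1h without HSD P4 replicate 3 (slope 0.88), Kcnh2 without HSD oil replicate 1 or HSD P4 replicate 1, 2 or 3 or BN oil replicate 1, 2 or 3 or BN P4 replicate 2 or 3 (slope 0.39 to 0.64), Kcnmb1 without HSD oil replicate 2 or HSD P4 replicate 2 or 3 or BN oil replicate 1, 2 or 3 or BN P4 replicate 1, 2 or 3 (slope 0.43 to 0.58), Trpm4 without HSD P4 replicate 2 or 3 (slope 0.46 to 0.51), Trpv2 without HSD oil replicate 1 or 2 or HSD P4 replicate 2 or 3 or BN oil replicate 2 or BN P4 replicate 1, 2 or 3 (slope 0.66 to 0.90), Scn2b without HSD P4 replicate 2 or 3 or BN oil replicate 1, 2 or 3 (slope 0.26 to 0.69), Kcnj9 without HSD P4 replicate 2 or 3 or BN oil replicate 1, 2 or 3 or BN P4 replicate 1, 2 or 3 (slope 0.29 to 0.48), Cacnb1 without HSD oil replicate 1 or HSD P4 replicate 2 or 3 or BN oil replicate 1 or 3 or BN P4 replicate 1, 2 or 3 (slope 0.26 to 0.54), Trpc4ap without HSD P4 replicate 2 or 3 (slope 0.26 to 0.36), Kcnf1 without HSD P4 replicate 2 or 3 (slope 2.00 to 2.02), and Trpm7 without HSD P4 replicate 2 or 3 (slope -0.36 to -0.24). Cacna1c gave 0.37 ± 0.14 and Kcnma1 -0.25 ± 0.23, neither of them called. This count depended on few libraries, with 3 genes without HSD P4 replicate 3, 6 without HSD P4 replicate 2, 10 without BN oil replicate 1, 2 or 3, 11 without BN P4 replicate 3, and 0 without HSD oil replicate 2 and HSD P4 replicate 3 together, where 17 had an unadjusted p below 0.05.

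**Figure D5:**
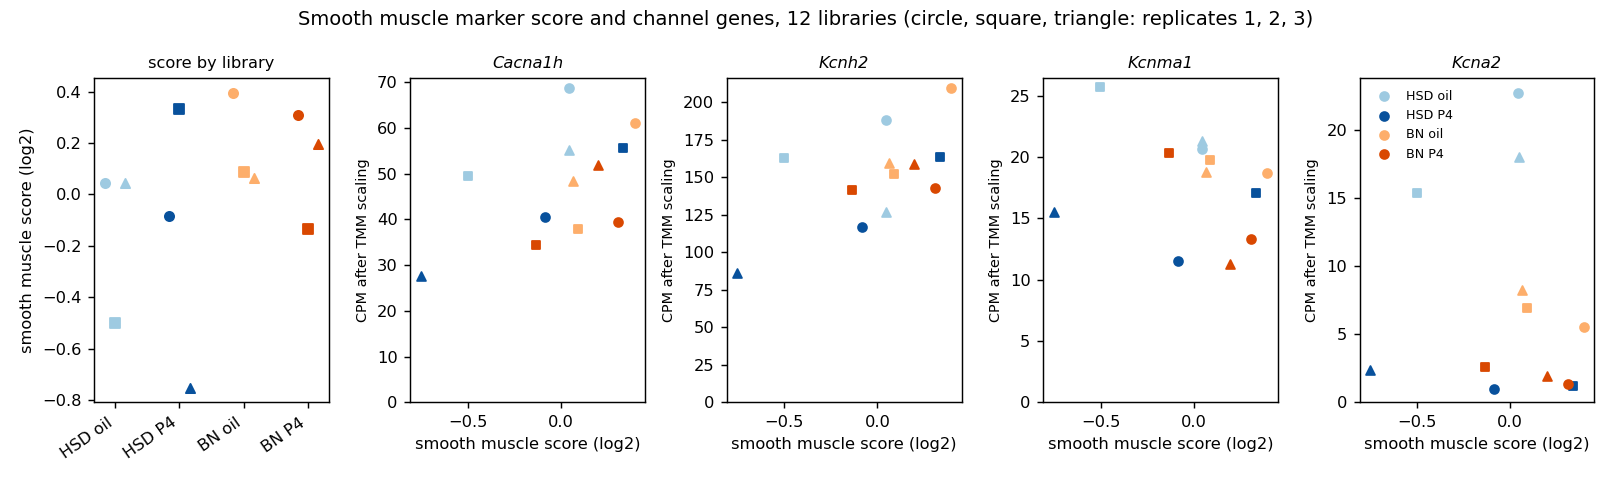
Left, the smooth muscle score (log2) of each library, and, in the other panels, CPM after TMM scaling of Cacna1h, Kcnh2, Kcnma1 and Kcna2 against that score, coloured by group with the replicate as symbol. Cacna1h and Kcnh2 are lowest in HSD P4 replicate 3, which has the lowest score, while Kcna2 separates by treatment at every score.

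The progesterone calls were also counted with the score taken into account. Oil and progesterone overlapped in score within each strain, so a covariate could remove few calls. The part of muscle content in these calls was not tested. With the score as a covariate 46 channel genes were called in HSD, 43 of them the same genes as without it, and 35 in BN, of which 30 were the same. Without HSD oil replicate 2 and HSD P4 replicate 3, the libraries poorest in muscle markers, a setting chosen after seeing the data, 32 were called in HSD, of which 30 were the same, and 34 in BN, of which 30 were the same.

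Calcium handling genes outside the channel families were called at about the share of all genes. Of 51 tested on a list of calcium stores, pumps, exchangers and other channels, 10 rose and 11 fell in HSD and 6 rose and 7 fell in BN, with medians of -0.06 and -0.03, beside 39.1% and 25.8% of all genes called. Ryr1, the calcium release channel of skeletal muscle, was lower in both strains, at -1.998 ± 0.27 in HSD and -1.20 ± 0.27 in BN, as was Cftr, the chloride channel of epithelial secretion, at -2.14 ± 0.30 and -1.25 ± 0.31 (adjusted p 0.000154 and 0.0107). Itpr1, the inositol trisphosphate receptor, changed by -0.56 and -0.40. Among the rises were Mcoln2, a TRP channel of lysosomes, at 2.75 ± 0.39 and 3.32 ± 0.42 and the plasma membrane calcium pump Atp2b2 at 1.59 ± 0.13 and 1.59 ± 0.13. Of 12 tested contraction-associated genes, 2 rose (Ptger3 and Ptgs2) and 2 fell (Chrm3 and Ednra) in HSD, and Ptger3 rose and Ednra fell in BN. The oxytocin receptor Oxtr and the gap junction gene Gja1 were not called, at -0.38 ± 0.57 and -0.15 ± 0.18 in HSD and -1.04 ± 0.49 and -0.30 ± 0.18 in BN.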

How the data were processed

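PolyA RNA of whole rat uterus was measured in 12 libraries (TruSeq kit, per the labels). Counts of total gene reads (exons and introns) and RPKM (exon reads divided by exon length and total gene reads) are as deposited, per the file headers. The build is Rnor_5.0 per the submitters' processing notes, while aligner, counter and counting strand: not given in the sources used here. Overlapping genes may therefore share reads. Columns left unassigned numbered 0. Total gene reads per library were 11763894 to 19033254, and intervals cover counting error only.

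The channel genes and all lists were chosen with earlier results of these data known. Counts were fitted in R 4.3.3 with edgeR 4.0.16 (TMM factors, filterByExpr, robust quasi-likelihood, 4 groups, 8 residual degrees of freedom) over 15697 genes, and genes were called at Benjamini-Hochberg adjusted p below 0.05. The SE is the absolute log2 change over the square root of F. RefSeq symbols matched for 161 genes and synonyms for 2, and promoters for 113. Labelled replicates differed beyond sampling noise. Named are genes called with an absolute log2 change of at least 1, called in both strains or between strains, the 2 highest of each class by RPKM, and a list with textbook uterine roles; some of these are not reported here. Alternatives were other scaling, filters and read classes, limma 3.58.1 (voom, and log2 RPKM + 0.1), DESeq2 1.42.0, the muscle score as covariate and leaving out libraries. The fit was tested on simulated data.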

Additional observations from a re-analysis of the deposited data

How the results depend on the processing

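No paired analysis was possible because the labels give no replicate number that groups share. Over single left-out libraries the number of channel genes called ranged over 34 to 45 for progesterone in HSD, 17 to 32 in BN and 47 to 57 averaged over strains, 7 to 20 between strains under oil, 4 to 18 under progesterone, 3 to 21 for the muscle score, and was 0 for the strain difference. Fitting the 6 compared libraries alone gave 27 calls in HSD and 6 between strains under progesterone. Under oil, voom with quality weights gave 26 and limma on log2 RPKM 8. Under progesterone, exon reads gave 6 and log2 RPKM 5. The strain difference gave 1 call with the score as covariate, 2 with DESeq2, and 1 without HSD oil replicate 2 and HSD P4 replicate 3, a setting chosen after seeing the data that gave 0 for the score. Other settings moved these counts by less than 1.5 times. On log2 RPKM 10 of the 38 calls in HSD were higher and 15 of 49 averaged over strains, and with library size alone 18 of 58 on average. Upper-quartile factors gave 20 of 60. Library size alone moved the median of all genes in HSD to -0.14. Values that reversed did so on log2 RPKM, which leaves out intron reads: Cacna2d4 -0.041 and Trpc7 -0.035 averaged over strains, Kcnk12 0.022 and Trpc7 -0.16 under oil, Kcnh8 -0.025 in BN and Trpc7 -0.16 in HSD. Of 156 calls of named genes 69 held in every setting. In both strains these included Kcna2, Kcnj9, Kcnt1, Kcnk1, Kcnk2, Kcnk6, Kcnh1, Cacna1a and TRPC2. The cause of the other changes was not tested. Genes near 0.2 CPM rest on about 3 reads a library, which limits the precision of their changes.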

Other observations

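Some channel genes with many reads rested largely on reads that were not placed uniquely or lay in introns. Kcng1, a silent potassium subunit, held 236 to 293 CPM with 24.2% of its reads placed uniquely. Kcnj5, a G protein-gated inward rectifier, held 65.9 to 88.9 CPM with 49.01% placed uniquely and 99.9% in introns. Neither was called for progesterone in either strain. In all, 15 of the 120 tested genes had fewer than 90% of reads placed uniquely and 13 had more than 90% in introns. Kcnk3, an acid-sensitive two-pore potassium channel, spread over 1.74, 4.62 and 0.354 CPM in HSD P4, beside muscle scores of -0.09, 0.33 and -0.75 in the same order. The adipocyte markers, 3 of 5 tested, summed to 5.198 to 11.4 CPM in HSD oil, 32.8 to 33.5 in HSD P4, 5.98 to 8.79 in BN oil and 17.3 to 27.6 in BN P4, and their relation to the channel genes was not tested.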
